A study of Homo sapiens with 8 samples.

Results

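The zinc finger genes with the symbols ZNF1 to ZNF350 were followed in A549 cells, a human lung carcinoma line, exposed to a seed extract or to a cardiac glycoside. Members were the protein-coding genes whose symbol is ZNF followed by a number up to 350, with an added letter allowed. The RefSeq annotation held 175 such genes, and 172 of them had a probe matched by accession, of 19056 genes matched on the array in all. The 3 without a matched probe were ZNF316, ZNF66 and ZNF98. The choice of members used no measured value, although earlier results of these data were known when it was made.

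Expression was measured on 8 one-colour Agilent human arrays, in 2 series of 4. In the first, cells received vehicle or EEDS, the ethanol extract of Descurainia sophia seeds, at 1.25, 5 or 20 μg/mL. In the second, cells received vehicle or helveticoside, a cardiac glycoside, at 3.75, 15 or 60 nM. Each group was 1 array of RNA pooled from 3 cultures of this 1 line, so a single dose had no replicate error. The exposure is 24 h in the study's methods and 48 h in the labels. All ratios below are log2 differences of the quantile-normalized signal between a dose and the vehicle control of its own series. A gene entered a series only if its probe was well above background on that control. The tests were limma's slope of log2 signal on dose step over the arrays (0 for vehicle to 3 for the top dose) and the difference of the slopes of both agents, with 4 residual degrees of freedom and Benjamini-Hochberg adjustment over all genes of the series. Their error is the scatter about the dose line, which is not the error between cultures.

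Most ZNF proteins carry tandem C2H2 zinc fingers, each of which folds around a zinc ion and contacts a few bases of DNA. Many also carry a KRAB domain, which binds TRIM28 and through it the histone methyltransferase SETDB1, and so silences the bound locus, often a transposable element. A smaller group carries a SCAN domain, through which the proteins pair. The genes arose by repeated tandem duplication and lie in clusters, most of all on chromosome 19. ZNF symbols do not mark 1 structural class: ZNF185, for example, is a LIM-domain protein.

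Of the 172 members, 149 were well above background on the EEDS control and 134 on the helveticoside control, 131 of them on both. On every one of the 8 arrays 103 were well above background, and 18 were so on none. Chromosome 19 held 74 members and 14 of those 18. ZNF91, the repressor of SVA elements, was among the 18, together with ZNF43, ZNF208 and ZNF90. ZNF93, known as a repressor of LINE-1 elements, was well above background on the EEDS control and at 20 μg/mL but on neither of the other EEDS arrays, and on no helveticoside array. Members that were dim on a control but not on a treated array have only a lower bound. In the EEDS series these were ZNF41, raised at least 1.75-fold at 5 μg/mL, and ZNF44, raised at least 1.25-fold at 20 μg/mL. In the helveticoside series they were ZNF16, ZNF20, ZNF81, ZNF107 and ZNF197, and at 60 nM the highest bound among them was that of ZNF107, at least 1.80-fold. These members were chosen by their detection after the values were seen.

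The cells carried the epithelial genes KRT7, KRT8, KRT18, KRT19, EPCAM and CDH1 on all 8 arrays. Of these 6, 4 fell and 1, KRT7, rose with each agent by limma's dose slope. CDH1 had log2 ratios of -2.70 and -2.71 and KRT19 of -1.90 and -1.72 at the top doses of EEDS and helveticoside, and the part of this shift in the members' changes was not tested. Of the lung lineage genes, NAPSA was well above background on all 8 arrays, SFTPC on 4, and NKX2-1 and SFTPB on none. SFTPC was so on the EEDS control but not on the helveticoside control. Of the genes of other cell types reported here, CD3E, PECAM1 and DCN were above background on no array, whereas PTPRC, CDH5 and COL1A1 were on all 8, with no slope call in either series. Probes well above background made up 63.3% to 64.9% of probes on the EEDS arrays and 54.5% to 59.5% on the helveticoside arrays. No probe was saturated. Within each series the 4 arrays followed the dose order in their position on the scan, so position on the scan and dose cannot be told apart. Between the vehicle controls, 4 of the 131 shared members differed more than 2-fold (3.05%; 2 higher and 2 lower on the helveticoside control), against 5.30% of all shared genes. The SD of the log2 difference was 0.47 for members and 0.50 for all genes.

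At 20 μg/mL EEDS, members rose more often than genes at large. Of 149 members, 41 (27.5%) were more than 2-fold higher, against a background of 14.2% of all 13703 genes. Another 24 (16.1%) were more than 2-fold lower, against 17.3%. The median log2 ratio of members was 0.29 and that of all genes -0.04. The ZNF genes with a number over 350 lay closer to the background, with 33 of 219 higher (15.1%), 31 lower (14.2%) and a median of 0.12. The share of members differed from the background in the lower classes of control signal. Among the genes in the lowest 25% of control signal 16 of 58 members (27.6%) were higher against 16.8% of all such genes, and in the next 25% 20 of 59 (33.9%) against 18.9%. In the 25% above that it was 4 of 27 (14.8%) against 13.8%. The top 25% held only 5 members, too few to compare, with 1 higher (20.0%) against 7.44%. Scaled to the 75th percentile, which put the median of all genes at -0.15, the split was 33 higher (22.1%, against 14.3% of all genes) and 30 lower (20.1%, against 21.2%), and the median of members was 0.06. On scanned median signals without background subtraction 26 members (17.4%) were higher against 10.9% of all genes.

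At the lower EEDS doses the shares of members past 2-fold were near the background. At 1.25 μg/mL 5 members were more than 2-fold higher (3.36%, background 3.63%) and 5 lower (3.36%, background 3.45%). Those 5 higher were ZNF341, ZNF146, ZNF335, ZNF224 and ZNF92, and the 5 lower were ZNF70, ZNF239, ZNF19, ZNF287 and ZNF114, all named after their values were seen. At 5 μg/mL 9 members were higher (6.04%, background 7.3%) and 13 lower (8.72%, background 9.22%). The median log2 ratio of members was -0.06 at 1.25 μg/mL and -0.04 at 5 μg/mL.

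Helveticoside gave another pattern across its doses, with most members below the control already at 3.75 nM. At that dose 101 of 134 members (75.4%) had a ratio below 0, against 49.5% of all 12526 genes, and the median was -0.35 against 0.00. More than 2-fold lower were 14 members (10.4%, background 1.7%), and 1 member, ZNF341, was more than 2-fold higher (0.746%, background 1.17%). ZNF genes with a number over 350 had a median of -0.25, with 11 of 177 lower (6.21%). At 15 nM 7 members were higher (5.22%, background 5.36%) and 15 lower (11.2%, background 8.25%), with a median of -0.19. At 60 nM 17 were higher (12.7%, background 10.5%) and 21 lower (15.7%, background 14.8%), with a median of -0.11.

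The array at 3.75 nM had the lowest share of probes well above background of the 8 (54.5%), and 27 of the 134 members were not well above background on it, against 16 at 60 nM. The part of this in the low ratios was not tested. Among genes in the lowest 25% of control signal, 9 of 62 members were more than 2-fold lower (14.5%) against 3.09% of all such genes. In the next 25% it was 3 of 43 (6.98%) against 2.21%, and in the 25% above that 2 of 25 (8.0%) against 1.12%. The top 25% had 0 of 4 members lower, against 0.383%. The 14 members were ZNF12, ZNF17, ZNF19, ZNF25, ZNF33B, ZNF75A, ZNF112, ZNF132, ZNF189, ZNF230, ZNF239, ZNF260, ZNF283 and ZNF302, listed after their values were seen. Of the 8 arrays, ZNF132 was well above background on the helveticoside control alone (log2 signal 7.00, against 3.45 on the EEDS control), so its fall rests on that 1 array. The count of members more than 2-fold lower was 3 on scanned median signals (2.24%, against 0.687% of all genes) and 1 on the authors' processed values (0.746%, against 0.431%). It was 8 among members well above background on all 4 arrays (7.69%, against 1.12%). The median stayed below that of all genes under every one of these settings, between -0.25 and -0.30.

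**Figure D1:**
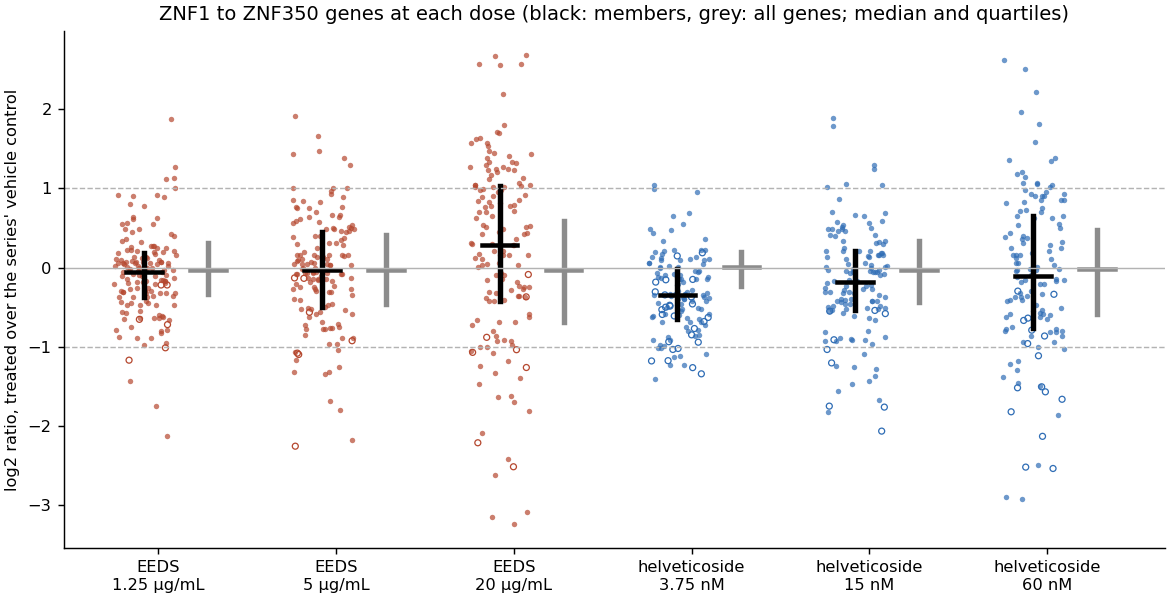
Log2 ratio of each ZNF1 to ZNF350 gene (points) over the vehicle control of its series at the 3 doses of EEDS (149 members) and of helveticoside (134 members). Open circles are bounds for members not well above background on the treated array, bars give median and quartiles of members (black) and all genes (grey), and dashed lines mark 2-fold. The black median lies above the grey one at 20 μg/mL EEDS (0.29 against -0.04) and below it at 3.75 nM helveticoside (-0.35 against 0.00).

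**Figure D2:**
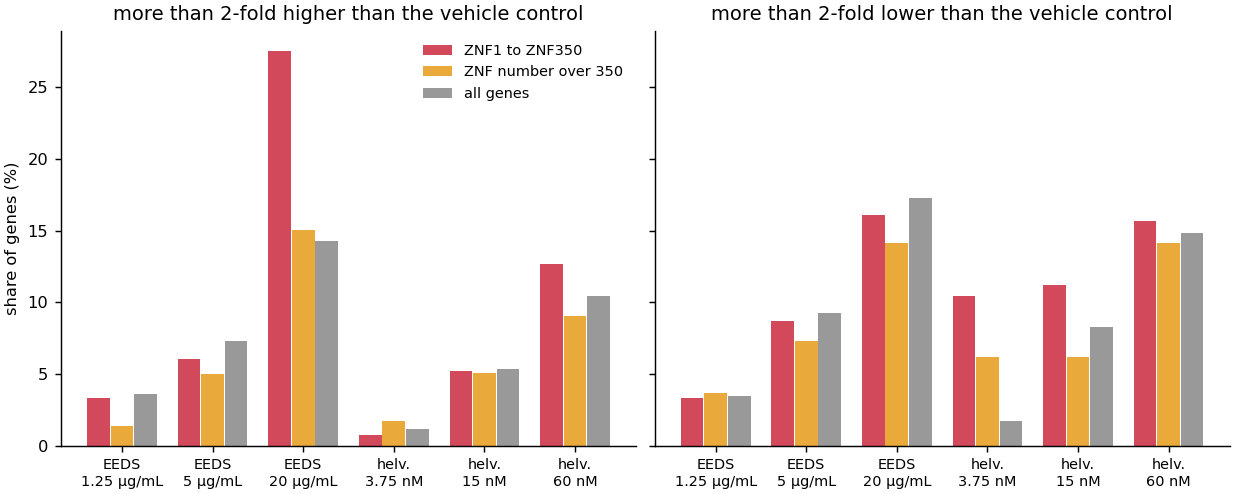
Share of genes, in percent, more than 2-fold higher (left) or lower (right) than the vehicle control of the series at each dose, for ZNF1 to ZNF350, ZNF genes with a number over 350, and all genes. The bars of ZNF1 to ZNF350 stand apart from the grey background bars at 20 μg/mL EEDS on the left (27.5% against 14.2%) and at 3.75 nM helveticoside on the right (10.4% against 1.7%).

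By limma's dose slope, 39 of 149 members changed with EEDS at an adjusted p under 0.05. Of these 21 rose (14.1%, background 13.5%) and 18 fell (12.1%, background 15.5%). With helveticoside 24 of 134 members changed, 11 rising (8.21%, background 10.7%) and 13 falling (9.70%, background 13.1%). These shares were near or below those of all genes. All 21 members that rose with EEDS were also more than 2-fold higher at 20 μg/mL, so 20 of the 41 past 2-fold at that dose had no slope call. The same overlap over all genes is not given here, so this count has no background to set it against. Fewer genes passed when a dose of each series was left out. Without the top dose 11 members passed for EEDS (7.38%, against 10.3% of all genes) and 6 for helveticoside (4.48%, against 3.79%). For helveticoside the count was 11 without the lowest dose (8.21%, against 10.2%) and 13 without the middle dose (9.70%, against 14.7%).

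The slope calls of both agents overlapped in 20 members. Rising with both were ZNF24, ZNF136, ZNF143, ZNF202, ZNF212, ZNF264, ZNF280C, ZNF330, ZNF335 and ZNF341. Falling with both were ZNF18, ZNF19, ZNF25, ZNF30, ZNF32, ZNF33B, ZNF174, ZNF232, ZNF248 and ZNF324B. The 10 rising members were 47.6% of those rising with EEDS and 90.9% of those rising with helveticoside, and the 10 falling members were 55.6% and 76.9%. Over all genes the shares were 61.8% and 84.8% for rising genes and 65.0% and 84.7% for falling genes. No member, and 0 of all genes, rose with 1 agent and fell with the other by these calls.

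The promoters of the 4 members called in both series with the smallest p in the weaker of their slopes are printed, since these genes carry the clearest dose response in each direction. ZNF335 and ZNF143 rose, and ZNF18 and ZNF32 fell. Each is 300 bases from RefSeq (GRCh38.p14), 250 before and 50 after the start of the gene, read on the strand of the gene. Capitals mark matches to 3 motifs searched on both strands: ACTACAA, the core of the site of ZNF143 itself, TGACGT, the site of ATF and CREB factors, and GCGNGGGCG, the site of EGR factors. The windows are chr20:45972154-45972453 (minus strand) for ZNF335, chr11:9460762-9461061 (plus) for ZNF143, chr17:11997426-11997725 (minus) for ZNF18 and chr10:43648832-43649131 (minus) for ZNF32.
ZNF335: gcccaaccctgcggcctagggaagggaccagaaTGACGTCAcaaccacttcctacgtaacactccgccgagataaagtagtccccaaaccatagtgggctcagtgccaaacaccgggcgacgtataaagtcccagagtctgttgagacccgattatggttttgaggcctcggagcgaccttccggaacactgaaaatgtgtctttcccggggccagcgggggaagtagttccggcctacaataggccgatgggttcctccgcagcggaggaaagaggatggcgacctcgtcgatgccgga
ZNF143: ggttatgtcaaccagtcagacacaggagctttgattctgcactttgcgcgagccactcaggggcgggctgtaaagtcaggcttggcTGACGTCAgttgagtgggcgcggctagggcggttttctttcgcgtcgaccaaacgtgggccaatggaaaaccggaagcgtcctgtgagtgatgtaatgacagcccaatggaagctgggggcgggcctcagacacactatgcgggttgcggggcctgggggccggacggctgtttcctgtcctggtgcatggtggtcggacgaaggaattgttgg
ZNF18: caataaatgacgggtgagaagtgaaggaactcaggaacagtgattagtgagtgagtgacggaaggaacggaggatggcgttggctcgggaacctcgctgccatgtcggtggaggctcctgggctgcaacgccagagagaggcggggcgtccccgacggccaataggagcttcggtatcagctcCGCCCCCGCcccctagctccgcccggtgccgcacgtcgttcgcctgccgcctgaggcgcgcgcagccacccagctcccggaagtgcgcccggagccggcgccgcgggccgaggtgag
ZNF32: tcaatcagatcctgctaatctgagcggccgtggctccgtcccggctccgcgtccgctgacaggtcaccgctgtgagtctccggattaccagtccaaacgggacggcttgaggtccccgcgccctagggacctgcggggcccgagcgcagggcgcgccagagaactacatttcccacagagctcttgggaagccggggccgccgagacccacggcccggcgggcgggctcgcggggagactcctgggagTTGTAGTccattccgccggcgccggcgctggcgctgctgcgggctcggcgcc

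The capitals in both rising genes are TGACGT on each strand, overlapping in a palindrome. In ZNF18 they are GCGNGGGCG and in ZNF32 ACTACAA, both on the opposite strand. Promoters were held for 151 members. TGACGT stood in 15 of them (9.93%) and in 9.67% of the promoters of 15843 protein-coding genes. It stood in 4 of 21 members rising with EEDS (19.05%) and in 3 of 10 rising with helveticoside (30%), against 1 of 16 falling with EEDS (6.25%) and 1 of 12 falling with helveticoside (8.33%). ACTACAA stood in 13 members (8.61%) against 3.14% of all promoters. It stood in 4 of 39 members more than 2-fold higher at 20 μg/mL EEDS (10.3%), in 0 of the 21 with a rising EEDS slope and in 1 of 16 with a falling one. GCGNGGGCG stood in 10 members (6.62%) against 12.6%, and in 1 of 64 promoters of members on chromosome 19. It stood in 0 of 21 members rising with EEDS and 0 of 10 rising with helveticoside, and in 3 of 16 (18.8%) and 2 of 12 (16.7%) of those falling. Among members past 2-fold at 20 μg/mL EEDS, it stood in 1 of 39 higher (2.56%) and 2 of 22 lower (9.09%). TGACGT stood in 7 of these 39 (17.9%) and 2 of these 22 (9.09%). The slope sets of both agents share 10 rising and 10 falling members, so they are not separate observations. A match is a description of the letters and no test was run on these shares.

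ZNF335, ZNF341 and ZNF143, all with known regulatory roles, were among the largest rises in both series, with a higher signal at each dose step. ZNF335 encodes a subunit of histone H3K4 methyltransferase complexes needed in neural progenitors. Its log2 signal was 8.98, 10.11, 10.64 and 11.67 from vehicle to 20 μg/mL EEDS and 8.15, 9.10, 9.94 and 10.67 from vehicle to 60 nM helveticoside. The signal was above the control at every dose, 6.46-fold at 20 μg/mL and 5.72-fold at 60 nM. The slope was 0.86 ± 0.09 (SE) log2 units a dose step for EEDS (limma, adjusted p = 0.00159) and 0.84 ± 0.09 for helveticoside (adjusted p = 0.00237).

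ZNF341, an activator of STAT3 transcription, stepped up earliest. Its log2 signal was 11.15, 13.03, 13.06 and 13.82 in the EEDS series and 10.70, 11.75, 12.60 and 13.33 in the helveticoside series. With EEDS most of the rise was present at 1.25 μg/mL (3.68-fold, and 6.37-fold at 20 μg/mL), and with helveticoside it was spread over the doses (2.06-fold at 3.75 nM and 6.19-fold at 60 nM). The slopes were 0.81 ± 0.14 and 0.87 ± 0.14 (SE; limma, adjusted p = 0.0065 and 0.00624). ZNF335 and ZNF341 both lie on chromosome 20.

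ZNF143 activates many promoters, those of small nuclear RNA genes among them. Its log2 signal was 9.25, 10.04, 10.68 and 11.83 across the EEDS doses and 9.15, 9.64, 10.39 and 11.38 across the helveticoside doses. The rise was 5.97-fold at 20 μg/mL and 4.67-fold at 60 nM, with slopes of 0.84 ± 0.09 and 0.74 ± 0.09 (SE; limma, adjusted p = 0.00164 and 0.00295). Its close paralogue ZNF76 went the other way with EEDS, from 6.29 on the control to 6.09, 5.66 and 5.04, which is 2.37-fold lower at 20 μg/mL (slope -0.42 ± 0.13, limma adjusted p = 0.0435). The ZNF76 call was lost under 6 of 14 other settings. ZNF76 was not well above background on any helveticoside array.

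The other large rises came mostly at the upper doses and on chromosome 19. ZNF136, a KRAB zinc finger gene, went from 6.38 to 6.94, 7.77 and 8.96 with EEDS (5.98-fold at the top dose) and reached 3.90-fold at 60 nM, and it passed the slope test for both agents (limma, adjusted p = 0.0100 and 0.0208). ZNF134 was at 8.05 on the EEDS control, 7.97 at 1.25, 8.53 at 5 and 10.61 at 20 μg/mL. It was 5.91-fold higher at that dose and 3.53-fold at 60 nM, after a level 1.84-fold below the control at 3.75 nM, and passed the slope test for neither agent (limma, adjusted p = 0.0541 and 0.115). ZNF256 was 4.56-fold higher at 20 μg/mL, with a slope call for EEDS (limma, adjusted p = 0.0370), and 2.57-fold higher at 60 nM without one (adjusted p = 0.135). ZNF264 was the member of this set with the larger response to helveticoside, 3.0-fold at 60 nM against 2.10-fold at 20 μg/mL, and was called in both series. Its EEDS call was lost under 8 of 14 other settings, scanned signals and the authors' values among them, and its helveticoside call under 2 of 14.

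**Figure D3:**
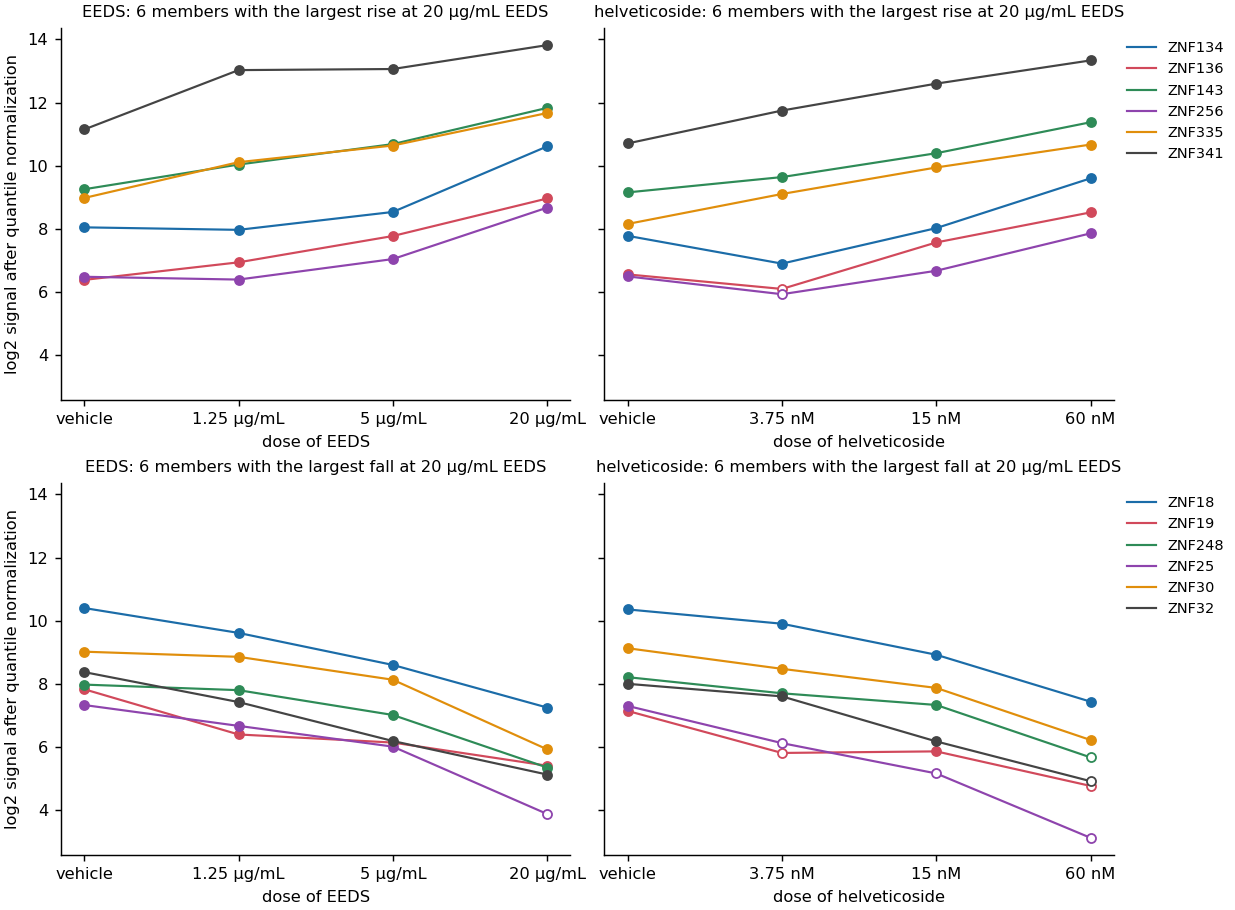
Log2 signal after quantile normalization on each array (1 point an array, no error bar since each dose is 1 array) against dose, for the 6 members with the largest rise (top) and the 6 with the largest fall (bottom) at 20 μg/mL EEDS, in the EEDS series (left) and the helveticoside series (right). Open circles were not well above background. ZNF335, ZNF341 and ZNF143 lie above the vehicle at every dose, whereas ZNF134, ZNF136 and ZNF256 first dip at 3.75 nM helveticoside. Signals of different probes are not comparable in level.

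The falls were as large and in part ran below detection. ZNF32 went from 8.37 on the EEDS control to 7.42, 6.19 and 5.13, which is 9.48-fold lower at 20 μg/mL. In the helveticoside series it went from 8.0 to 7.60 and 6.17 and was not well above background at 60 nM, where it was at least 5.76-fold lower. The slopes were -1.10 ± 0.12 and -0.90 ± 0.12 (SE; limma, adjusted p = 0.00164 and 0.00339), with the dim value set to its bound. ZNF18 was measured on all 8 arrays, at 10.40, 9.61, 8.60 and 7.25 with EEDS and 10.36, 9.90, 8.92 and 7.43 with helveticoside. It fell at each dose step, 8.89-fold in all with EEDS and 7.58-fold with helveticoside (limma, adjusted p = 0.00211 and 0.00309).

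ZNF30, on chromosome 19, changed mainly between the middle and the top dose. Its log2 signal was 9.02, 8.85, 8.13 and 5.92 with EEDS and 9.13, 8.47, 7.87 and 6.22 with helveticoside, 8.54-fold and 7.51-fold lower at the top doses (limma, adjusted p = 0.0101 and 0.0158). ZNF248 was 6.18-fold lower at 20 μg/mL and at least 5.82-fold lower at 60 nM. ZNF25 was at least 5.74-fold lower at 20 μg/mL and at least 3.54-fold lower at 60 nM. ZNF19 was 5.36-fold lower at 20 μg/mL and already 2.70-fold lower at 1.25 μg/mL, and at least 3.17-fold lower at 60 nM. ZNF33B was 3.10-fold lower at 20 μg/mL and 5.64-fold lower at 60 nM. ZNF174, which encodes a SCAN-domain protein, was 3.53-fold lower at 20 μg/mL by the probe used and 1.42-fold lower by another, and at least 4.39-fold lower at 60 nM.

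Smaller changes with little scatter about the dose line completed the lowest adjusted p values. ZNF232 was 4.28-fold and 3.66-fold lower at the top doses of EEDS and helveticoside, and ZNF324B 3.26-fold and 2.81-fold lower. ZNF212 was 2.47-fold and 2.10-fold higher. These 3 were called in both series. ZNF267 (3.49-fold higher) and ZNF74 (3.09-fold lower) were called for EEDS (limma, adjusted p = 0.00884 and 0.00662), and with helveticoside they were 2.06-fold higher and 1.71-fold lower without a call (adjusted p = 0.0757 and 0.105).

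Members with a described role in KRAB or SCAN repression were mixed. ZNF202, a SCAN and KRAB repressor of lipid metabolism genes, rose 2.70-fold at 20 μg/mL and 2.54-fold at 60 nM and passed the test in both series (limma, adjusted p = 0.0269 and 0.0419). ZNF24, a SCAN protein, rose 2.31-fold at 20 μg/mL and passed for both as well, at 1.77-fold at 60 nM. ZNF274, which brings SETDB1 to the 3′ ends of ZNF genes, went from 8.02 on the EEDS control to 8.0, 8.77 and 9.64 (3.08-fold at the top dose, limma adjusted p = 0.0324) and was 2.28-fold higher at 60 nM without a call (adjusted p = 0.0679). ZNF263 was 3.26-fold higher at 20 μg/mL (adjusted p = 0.0353) and 2.22-fold higher at 60 nM (adjusted p = 0.124). ZNF10, the source of the KRAB domain used in CRISPR interference, was 1.11-fold higher at 20 μg/mL by the probe used and 3.28-fold higher by another probe. It passed no slope test by the probe used, and was not well above background at any helveticoside dose. ZNF268 was 1.34-fold higher at 20 μg/mL and 1.02-fold higher at 60 nM, with no call.

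Members known for other roles are given next. ZNF292, a large growth-related transcription factor, rose with EEDS, 2.77-fold at 20 μg/mL (limma, adjusted p = 0.0153), and was 1.80-fold higher at 60 nM (adjusted p = 0.0771). ZNF217, an amplified gene in breast cancer, was 1.71-fold and 1.54-fold higher at the top doses (adjusted p = 0.0524 and 0.114). ZNF281, a regulator of pluripotency and epithelial genes, was 1.43-fold and 1.30-fold higher with no call. ZNF207, a mitotic spindle protein, followed no line: its log2 signal was 12.11 on the EEDS control, 11.49 at 1.25, 11.33 at 5 and 13.35 at 20 μg/mL, and 12.07, 11.61, 10.97 and 12.23 across the helveticoside doses. The direction of ZNF148 depended on the probe: the probe used was 1.91-fold and 1.51-fold lower at the top doses and the other 1.77-fold and 1.24-fold higher. ZNF148, ZNF318, a factor in immunoglobulin D splicing (1.54-fold and 1.02-fold lower), and ZNF346, a double-stranded RNA binding protein (1.12-fold and 1.39-fold lower), passed no slope test.

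The genes of the corepressors through which KRAB proteins act were measured as a list of 22, all well above background on all 8 arrays. Of these 3 had an EEDS slope (1 rising and 2 falling), where 29.01% of all genes were called, and 1 a helveticoside slope, falling, where 23.8% were. The median log2 ratio of the list was -0.17 at 20 μg/mL and 0.00 at 60 nM, against -0.04 and -0.01 for all genes. TRIM28 had log2 ratios of 0.14, -0.12 and -0.17 with EEDS and 0.13, 0.08 and 0.02 with helveticoside. SETDB1 had -0.29, -0.37 and -0.51, and -0.36, -0.21 and -0.35. The largest rise at the top doses was that of ATF7IP, the partner that stabilizes SETDB1, at 1.79 with EEDS (limma, adjusted p = 0.0196) and 1.05 with helveticoside. The largest fall with EEDS was that of CBX5, which encodes a heterochromatin protein, at -1.78 (limma, adjusted p = 0.00234). CBX5 was at -1.25 at 60 nM and was the 1 gene of the list called with helveticoside (limma, adjusted p = 0.00665). The largest fall with helveticoside was that of the DNA methyltransferase DNMT3B, at -1.51 without a call (limma, adjusted p = 0.0608). DNMT3B was at -1.68 at 20 μg/mL EEDS (limma, adjusted p = 0.0338).

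At the top doses the members differed by chromosome. On chromosome 19, 20 of 56 members (35.7%) were more than 2-fold higher at 20 μg/mL EEDS and 5 (8.93%) were lower, with a median log2 ratio of 0.68. The 930 other genes measured on that chromosome had 12.3% higher, 14.5% lower and a median of -0.06. Members on other chromosomes had 21 of 93 higher (22.6%), 19 lower (20.4%) and a median of 0.04. At 3.75 nM helveticoside 46 of 52 members on chromosome 19 had a ratio below 0, with a median of -0.50 against 0.04 for the other genes there. Members on other chromosomes were also low at that dose, with 55 of 82 below 0 and a median of -0.25. The medians of members on chromosomes 10, 16 and 7 were -0.63, -0.56 and -0.31. At 60 nM the median of members on chromosome 19 was 0.03. These are descriptions without a test, since neighbouring genes are not independent.

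Chromosome 19 held the longest stretch of consecutive protein-coding genes that are all members, 18 genes from ZNF45 to ZNF180. Of the 14 measured with EEDS, 6 were more than 2-fold higher at 20 μg/mL, 1 was lower, and the median was 0.80. ZNF155, ZNF230, ZNF223, ZNF224, ZNF226 and ZNF227 were the 6, with log2 ratios from 1.01 for ZNF155 to 1.64 for ZNF227, and ZNF285 (-1.26) was the lower one. Of the 13 measured with helveticoside, 11 were below 0 at 3.75 nM with a median of -0.79, and at 60 nM the median was -0.17 with 6 above 0. ZNF112 was at -1.67 at 15 nM, and since it was not well above background at 3.75 and 60 nM it was at least 2.54-fold and at least 2.97-fold lower there. For ZNF226 a second probe gave a log2 ratio of -0.04 at 20 μg/mL against 1.04, so its place among the 6 rests on 1 probe.

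On chromosome 10 most members were lower at the top doses, unlike those on chromosome 19 at 20 μg/mL EEDS. All 8 members there were measured in both series, and 7 of them were below 0 at both top doses, with medians of -1.36 at 20 μg/mL and -1.67 at 60 nM. More than 2-fold lower were 5 of 8 with EEDS and 6 of 8 with helveticoside, against 20.1% and 14.2% of the other genes of that chromosome. The exception was ZNF22, at 0.71 and 0.65. The stretch of 5 neighbouring members, ZNF248, ZNF25, ZNF33A, ZNF37A and ZNF33B, was below 0 throughout at the upper doses of both agents, from -2.63 to -0.42 at 20 μg/mL and from -2.54 to -0.86 at 60 nM, where the values of ZNF248 and ZNF25 are bounds. ZNF32, described above, lies on this chromosome outside that stretch. ZNF33A and ZNF33B are close paralogues, so their probes may share signal.

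**Figure D4:**
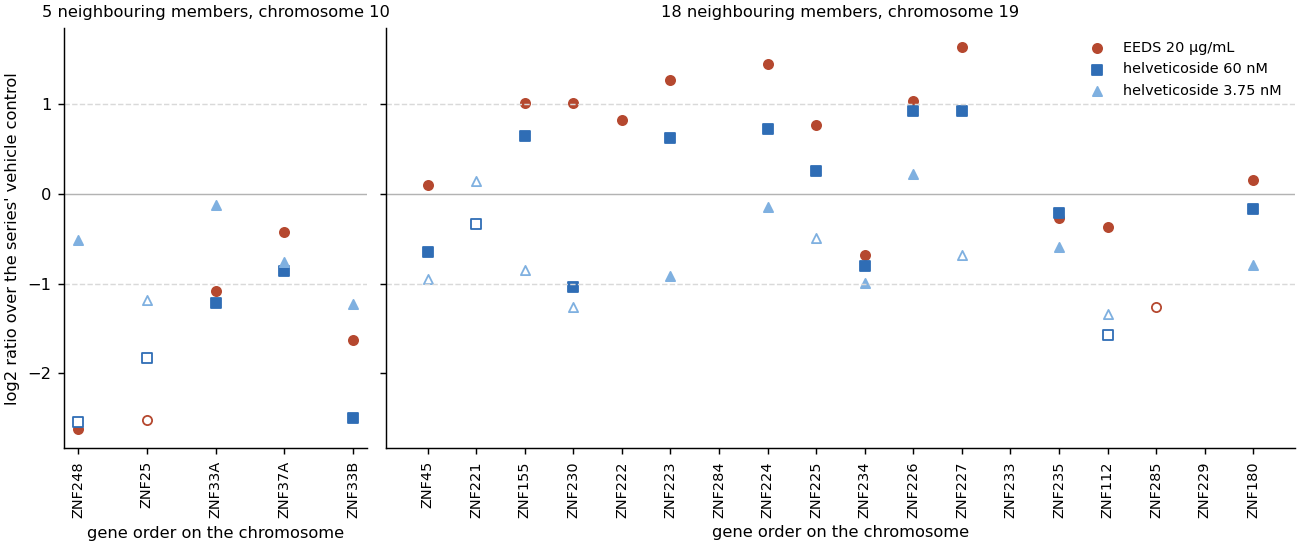
Log2 ratio over the vehicle control of the series for the runs of 5 neighbouring members on chromosome 10 (left) and 18 on chromosome 19 (right), in gene order. Circles are 20 μg/mL EEDS, squares 60 nM and triangles 3.75 nM helveticoside, open symbols are bounds, and a gene without a symbol was not well above background on that control. All symbols on the left lie below 0. On the right 10 of 14 circles lie above 0, and 11 of 13 triangles lie below 0, as on the left.

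Across the 131 members measured on both controls, the ratios of both agents ran together at the top doses, with Pearson's r of 0.89 and Spearman's rho of 0.87 over genes of 1 array pair each, which are not independent points. All 12385 genes shared by the series gave 0.92 and 0.90. More than 2-fold higher at both doses were 15 members (11.5%, against 8.91% of all shared genes), and lower at both were 12 (9.16%, against 12.4%). The agents differed in level: 22 members (16.8%, against 5.02% of all shared genes) were past 2-fold higher with 20 μg/mL EEDS alone and 2 (1.53%, against 1.63%) with 60 nM helveticoside alone, and the median of helveticoside minus EEDS was -0.29, against 0.02 for all genes. At the lowest doses r was 0.37 for members and 0.48 for all genes. The doses are in different units and were not matched.

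No member passed the test of the difference between the slopes of the agents (0 of 131, and 0 of 12385 genes, at a limma adjusted p under 0.05). At an unadjusted p under 0.05 there were 2 of 131 members, against 120 of 12385 genes. The 2 members were ZNF230 and ZNF184. A test that misses the threshold does not show that the agents acted alike. ZNF230 had the largest difference at the top doses, with log2 signals of 6.0, 5.94, 6.16 and 7.02 in the EEDS series and 7.23, 4.27, 5.86 and 6.19 in the helveticoside series, the 4.27 at 3.75 nM being not well above background. It was 2.02-fold higher at 20 μg/mL and 2.05-fold lower at 60 nM. The controls themselves differed here, and against the control of the other series the log2 ratios were -0.21 and 0.19. ZNF184 was at 0.42 with 20 μg/mL EEDS and -1.38 with 60 nM helveticoside, where it had a falling slope (limma, adjusted p = 0.0479). That call was lost under 6 of 14 other settings. ZNF266 (1.41 against 0.11) and ZNF182 (0.52 against -0.75) made up the 4 largest differences.

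**Figure D5:**
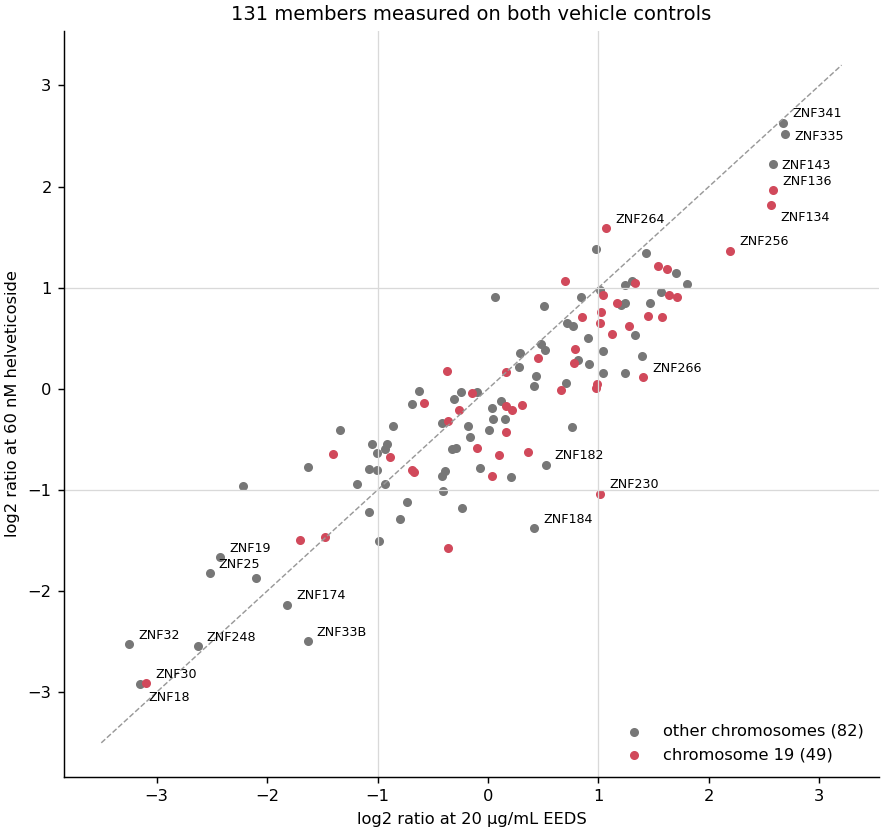
Log2 ratio at 60 nM helveticoside against log2 ratio at 20 μg/mL EEDS for the 131 members measured on both vehicle controls (1 point a gene), with chromosome 19 in red (49 members) and the others in grey (82). The dashed line marks equal ratios and thin lines mark 2-fold. Below the dashed line, with the higher ratio for EEDS, lie 91 of the 131 points (69.5%, against 47.2% of all shared genes). ZNF230 is the only member past 2-fold in opposite directions.

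Several probes bore on 1 gene for 49 members, and each such gene is given by its brightest probe on average. Where more than 1 probe was well above background at the top dose and on the control, they differed in sign for 12 of 34 members with EEDS and for 7 of 18 with helveticoside. None had probes past 2-fold in opposite directions. For ZNF169, as for ZNF226, 1 probe was past 2-fold (-1.03) and another on the other side of 0 (0.14). Many ZNF genes are near-identical copies, and cross-hybridization between them was not tested.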

How the data were processed

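Per the labels, total RNA of A549 cells was measured on 8 one-colour arrays, 1 a group, each of RNA pooled from 3 cultures. The deposited scanner files hold spot intensities, already background-subtracted by the Feature Extraction software and not normalized between arrays. The value table of the authors holds intensity values after their quantile normalization and was an alternative. Control and outlier spots (246 to 331 an array) were left out, spots of a probe were averaged, and log2 intensities were quantile-normalized. Of 34105 probes 24812 matched 1 RefSeq gene by accession, and the brightest probe of a gene was used. A treated value not well above background was raised, where below it, to the lowest signal well above background on that array, and is given as "at least". Slopes were fitted with limma 3.58.1 (trend and robust) in R 4.3.3 and tested on simulated data. Named members were the 6 largest rises and falls a series at the top dose, the 5 smallest adjusted p a direction and series, the 4 largest differences between agents and a list of known roles. The members and lists were chosen with earlier results of these data known. Protein sequences were not used here, so KRAB and SCAN subgroups were not counted. Arrays limit the precision by their number.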

Additional observations from a re-analysis of the deposited data

Results flagged for a closer look

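ZNF182 moved in opposite directions with the agents at all 3 doses of each. Its log2 ratios were 0.92, 0.54 and 0.52 with 1.25, 5 and 20 μg/mL EEDS and -0.64, -0.49 and -0.75 with 3.75, 15 and 60 nM helveticoside, a difference of -1.27 at the top doses (helveticoside minus EEDS). The control signals were 7.89 and 8.69 on the log2 scale, and against the control of the other series the top-dose ratios were -0.28 and 0.05. The slopes of the agents did not differ past the threshold in limma, and the difference at single doses was not tested.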

How the results depend on the processing

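Each dose is 1 array, so counts past 2-fold carry no replicate error, and dim members are limited by background. No paired analysis was possible because each group held 1 sample. Of the recomputed counts, 94 stayed within 1.5 times the reported one and 42 did not. Of 44 slope calls of named members, 33 were lost without the top dose, 15 without the lowest, 10 without the middle, 21 on linear dose, 8 on the authors' values and at most 2 under any other setting. ZNF143 and ZNF18 in both series and ZNF32 with EEDS were lost under none, and no called slope changed sign. The cause of the changes below was not tested. Without background subtraction, the EEDS doses in rising order gave 2, 5 and 26 members higher (5, 9 and 41 as reported) and 0, 7 and 13 lower (5, 13 and 24), and the helveticoside doses gave 0, 4 and 9 higher (1, 7 and 17), with 3 lower at 3.75 nM and 8 at 15 nM (14 and 15). Of all genes, 10.9% were then higher and 12.5% lower at 20 μg/mL (14.2% and 17.3% as reported), and 0.687% lower at 3.75 nM (1.7%). Normexp correction gave 2, 5 and 27 higher and 0, 8 and 13 lower with EEDS, and 0, 4 and 10 higher with helveticoside, with 3 and 8 lower at its 2 lower doses. The authors' processed values gave 0, 3 and 6 higher and 1, 5 and 11 lower with helveticoside, and 14 of its slopes (24 as reported). On these values 7.31% of all genes were higher and 9.53% lower at 60 nM (10.5% and 14.8% as reported). Helveticoside slopes were called for 16.1% of all genes (23.8% as reported) and 10.4% of members (17.9%). Scaling to the 75th percentile gave 9 lower at 1.25 μg/mL (6.04%, against 4.69% of all genes). Members above background on all 4 arrays gave 2 lower at 1.25 μg/mL (1.44%, against 2.42% of all such genes) and 8 at 3.75 nM (7.69%, against 1.12%). They gave 6 lower at 15 nM (5.77%, against 6.05%) and 11 at 60 nM (10.6%, against 13.2%). Measured signals without a bound gave 22 lower at 3.75 nM (16.4%, against 2.87% of all genes). The control of the other series gave 14 higher at 5 μg/mL (9.40%, against 11.7% of all genes). At 3.75 nM it gave 6 higher (4.48%, against 5.64%) and 25 lower (18.7%, against 4.58%). It turned ZNF230 to -0.21 at 20 μg/mL and 0.19 at 60 nM. Without the top dose 11 EEDS and 6 helveticoside slopes passed, and without the lowest and the middle dose 11 and 13 helveticoside slopes.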
